A study of Mus musculus with 8 samples.

Results

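The genes described here are 38 genes of T cell receptor signalling: the chains of the receptor complex, the kinases and adaptors next to it, the enzymes that restrain it, and its calcineurin and NFAT arm. They were listed by name, as members of the pathway, with earlier results of these data known. A gene was represented by the probe set that the platform table assigns to it alone, the brightest on average where there was more than 1. This gave 37 of the 38 genes, among 11128 genes tested, and Lck was not analysed here. All 37 reached the filter value of 7.85 (the median of all log2 signals) on every array, and none lies on a sex chromosome.

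When the receptor binds its ligand, the tyrosine kinases LCK and FYN phosphorylate the tails of the CD3 and ζ chains, and ZAP70 docks there. ZAP70 then phosphorylates the adaptors LAT and SLP76, which gather VAV1, phospholipase Cγ and a kinase of the TEC family. Calcium then drives calcineurin and NFAT, while diacylglycerol drives protein kinase Cθ and RASGRP1. Phosphatases, CSK, the UBASH3 proteins, the CBL ubiquitin ligases and the diacylglycerol kinases limit the response. RORγt directs Th17 differentiation, in which T helper cells come to make interleukin 17, and SRC-3 is a coactivator that nuclear receptors recruit.

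RNA of mouse Th17 cells was measured on 8 arrays, 2 per group, in 2 experiments. In the first, cells labelled SRC-3 deficient, from SRC-3 (f/f) mice, stood beside cells from SRC-3 WT mice. In the second, cells from RORgt (-/-) mice stood beside cells from RORgt WT mice. The protocol describes naive CD4+ cells stimulated through CD3 and CD28 with interleukins 1, 6 and 23, naming only the SRC-3 and wild-type cells. Th0 cells, which the protocol also mentions, were not analysed here. No label gives the strain, age or sex of the mice, the length of culture, or the Cre that acted on the floxed allele, nor how the RORγt cultures were made beyond the word Th17. The titles speak of biological replicates without naming separate mice. The p-values therefore measure only how far the arrays of a pair lie apart, which may be technical. The SRC-3 experiment was stimulated through the receptor itself, so its levels are those of activated cells.

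The 2 arrays of a group correlated across genes with r between 0.989 and 0.997, and array medians lay between 7.76 and 7.93. Ncoa3, the gene of SRC-3, gave log2 signals of 11.15 and 10.97 in SRC-3-deficient cells beside 11.76 and 11.53 in their wild type. This was 0.667 of the wild-type level (log2 fold change −0.58, limma adjusted p = 0.0567), and no label gives the deleted part of the gene. All 9 measured markers of the T cell list, 7 of them among the genes described here, passed the filter on every array. Of the markers of other cell types, 6 of 8 for B cells, 9 of 10 for myeloid cells and 3 of 4 for CD8 T cells stayed below it on all arrays, as did 4 of 6 for NK cells. For gamma-delta T cells 1 of 3 did, and Sox13 of that list gave 8.34 to 8.53. Of the 5 measured Th17 markers, limma called 4 lower without RORγt and Ccl20 higher, beside 9.37% lower and 10.0% higher of all genes. The 4 were Il17a (log2 fold change −4.11), Il17f (−3.36), Il23r (−3.23) and Ccr6 (−1.59). Their summed linear signal with Ccl20 was 1819 to 2035 without RORγt and 10778 to 12663 in wild type. In the SRC-3 experiment it was 5772 to 6842 in deficient cells and 9174 to 10699 in wild type. Xist, the transcript of the inactive X chromosome, gave 6.37 and 6.08 without RORγt beside 12.55 and 12.76 in wild type. It gave 7.10 and 13.60 in SRC-3-deficient replicates 1 and 2, beside 13.65 and 13.52 in wild type. Sex and genotype therefore cannot be told apart in the RORγt comparison.

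Loss of RORγt was accompanied by higher levels of 9 of the 37 genes and lower levels of 0. The 9 were the kinase genes Txk and Fyn, the phospholipase gene Plcg1, the relay genes Prkcq and Rasgrp1, and the regulators Ptprc, Ubash3a, Dgka and Dgkz. They made up 24.3% of the 37 genes. Among all genes tested, 19.4% were called in this comparison by limma at an adjusted p of 0.05, 10.0% higher and 9.37% lower in the deficient cells. This share depended on signal level. With the filter raised from 7.85 to 9.78, limma called 24.0% of the 6294 genes then tested. Of the 37 genes 34 were tested there, and 9 were called higher. With the filter at 7.85, 17 of the 37 genes (45.9%) had an unadjusted p under 0.05, beside 34.6% of all genes. The median log2 fold change of the 37 was 0.10 and that of all genes 0.00, and 25 of the 37 values were positive.

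Loss of SRC-3 gave no call among the 37 genes (limma, lowest adjusted p 0.268, 3 with an unadjusted p under 0.05). In this comparison 0.225% of all genes were called (0.189% higher, 0.0359% lower), and 12.5% had an unadjusted p under 0.05 against 8.11% of the 37. The median log2 fold change was 0.02, equal to that of all genes, and 34 of the 37 values lay within 0.20 of 0. For 34 of the 37 the 95% confidence interval stayed within 0.5 on the log2 scale in either direction, and for 36 within 1.0, a 2-fold change. The exceptions were Themis, Ubash3b and Ppp3ca, whose replicates differed most.

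**Figure D1:**
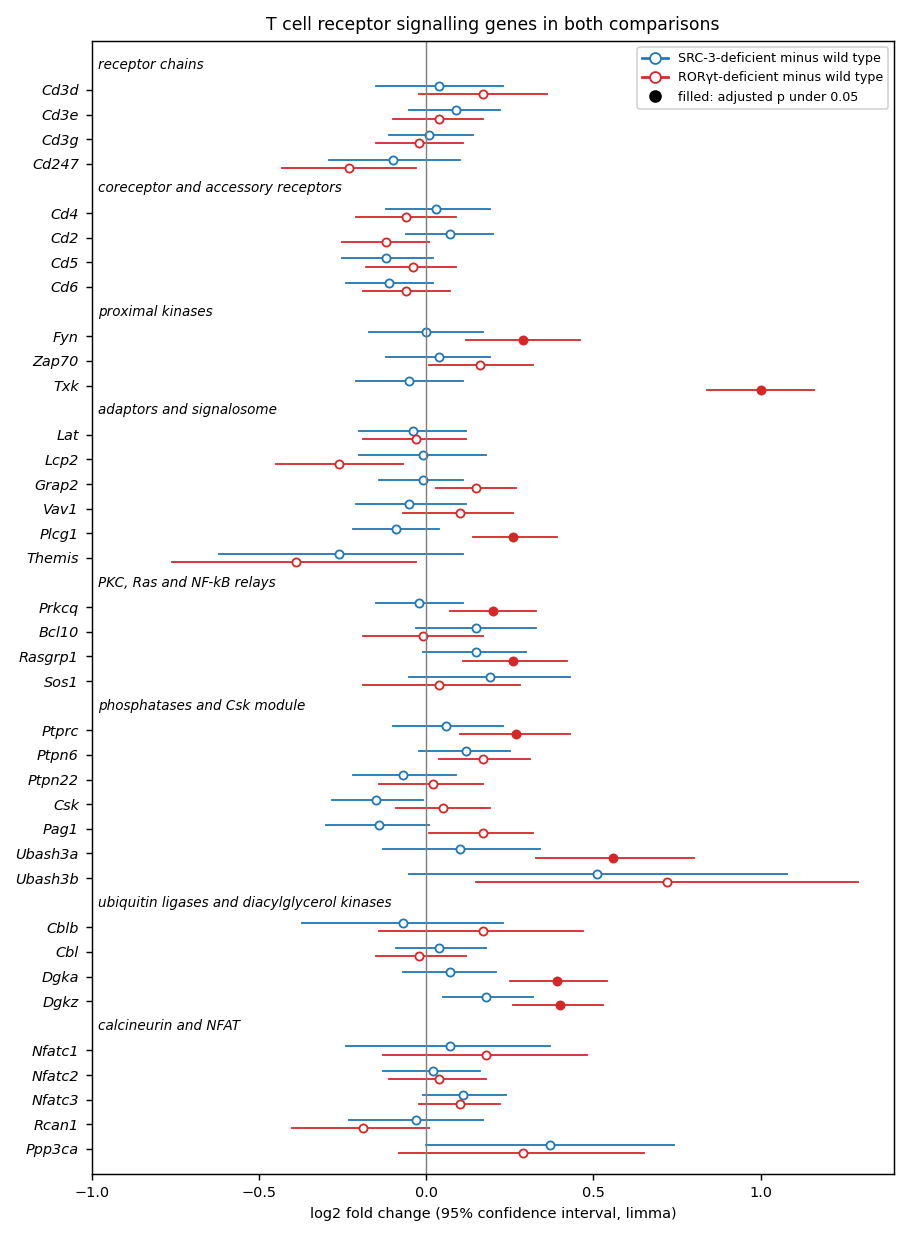
Log2 fold change of the 37 genes, grouped by role, in the SRC-3 comparison (blue) and the RORγt comparison (red), 2 arrays per group. Points are limma estimates, bars are 95% confidence intervals and filled points passed an adjusted p of 0.05. All 9 filled points belong to the RORγt comparison and lie to the right of 0, with Txk farthest at 1.0.

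No gene of the receptor chains passed in either comparison, beside 19.4% of all genes without RORγt and 0.225% without SRC-3. Cd3g (probe set 10593015) gave 13.23 and 13.20 without RORγt beside 13.26 and 13.22 in wild type, and 13.23 and 13.19 beside 13.19 and 13.21 in the SRC-3 experiment. All 8 values thus lay within 0.1 of each other. Cd3e gave 13.55 and 13.56 beside 13.49 and 13.54 without RORγt. Cd3d gave 11.86 and 11.84 beside 11.75 and 11.60, a difference of 0.17 (limma adjusted p = 0.18). For Cd247, the gene of the ζ chain, the RORγt-deficient arrays (10.06 and 10.15) lay below the wild-type arrays (10.23 and 10.44), and missed the threshold (log2 fold change −0.23, limma adjusted p = 0.0965). It was called with array weights (adjusted p = 0.0433). In the SRC-3 comparison the 4 chains lay between −0.10 and 0.09, with adjusted p between 0.609 and 0.955. Cd3d lies directly beside both Cd3g and Cd3e on their chromosome.

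Cd4, the coreceptor gene that defines this lineage, gave between 12.86 and 13.09 on all 8 arrays. Its 95% intervals were −0.12 to 0.19 for the SRC-3 comparison and −0.21 to 0.09 for the RORγt comparison. Cd2, which encodes an adhesion and costimulatory receptor, and the scavenger-receptor genes Cd5 and Cd6, whose products restrain signalling and which are direct neighbours, gave −0.12, −0.04 and −0.06 without RORγt. Without SRC-3 the values were 0.07, −0.12 and −0.11. None of these passed the test. Cd5 and Cd6 were lower without overlap in both comparisons, but so were 14.3% of all genes without SRC-3 and 34.2% without RORγt.

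Txk (probe set 10530516) showed the largest change of the 37 genes. It encodes a TEC family kinase also called RLK, which acts on phospholipase Cγ. Its log2 signals were 10.19 and 10.11 without RORγt and 9.20 and 9.11 in wild type, so that the groups were far apart relative to the replicates. This was a 2-fold rise (log2 fold change 1.0, SE 0.07, n = 2 per group, limma adjusted p = 0.000485). The 4 arrays of the SRC-3 experiment gave 8.99 and 9.03 without SRC-3 and 9.12 and 9.0 in wild type, which overlap (log2 fold change −0.05, 95% interval −0.21 to 0.11). The effect of SRC-3 loss minus that of RORγt loss was −1.05 (95% interval −1.28 to −0.82, limma adjusted p = 0.00596), and Txk was the only one of the 37 genes whose effects differed at that threshold. Of all genes tested 1.67% did, 0.746% with a negative and 0.926% with a positive difference. The rise itself was called under all 17 alternative settings, with values between 0.95 and 1.04.

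The neighbouring gene moved the other way. Tec, which encodes another kinase of the family and lies directly beside Txk with no protein-coding gene between them, is not among the 38 genes but belongs to a list of other genes of the pathway. It gave 7.99 and 7.95 without RORγt and 8.67 and 8.58 in wild type, again without overlap. It fell to 0.633 of its wild-type level (log2 fold change −0.66, SE 0.07, limma adjusted p = 0.00216), a call kept under all 16 alternatives that could test it. In the SRC-3 comparison it gave −0.24 (limma adjusted p = 0.26). The 250 bases before the most upstream listed start of both genes are shown because this pair of neighbours changed in opposite directions. They are RefSeq sequences of GRCm38.p6, read 5′ to 3′ on the gene's own strand, at chr5:72752778-72753027 (minus strand) and chr5:72868449-72868698 (minus strand). TGTGGT, a RUNX core, was searched as well. Capitals mark matches on either strand to the 3 motifs found in the sequences shown: AGGTCA, the half-site of nuclear receptors of the ROR kind, GGAAA, the core bound by NFAT, and GGAAG, a core of ETS factors.
Txk: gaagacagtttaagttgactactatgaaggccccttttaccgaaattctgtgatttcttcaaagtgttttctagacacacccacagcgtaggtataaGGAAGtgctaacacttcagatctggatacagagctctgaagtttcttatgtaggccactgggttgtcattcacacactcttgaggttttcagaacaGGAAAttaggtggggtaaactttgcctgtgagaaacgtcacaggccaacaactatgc
Tec: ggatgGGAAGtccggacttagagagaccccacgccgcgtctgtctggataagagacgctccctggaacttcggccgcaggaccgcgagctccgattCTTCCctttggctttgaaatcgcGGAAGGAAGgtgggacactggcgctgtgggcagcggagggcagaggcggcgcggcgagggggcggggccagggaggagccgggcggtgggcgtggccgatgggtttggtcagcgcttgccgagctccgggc
The Txk window held 1 GGAAA and 1 GGAAG, the Tec window 4 GGAAG, a count in which overlapping copies are included, and neither held AGGTCA or TGTGGT. Their G and C content was 42.8% and 68.4%. A match is a description of letters and not a site.

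Of the other measured proximal kinases, Fyn (probe set 10362596), a SRC family kinase, gave 11.71 and 11.78 without RORγt and 11.47 and 11.45 in wild type. It rose 1.22-fold (log2 fold change 0.29, SE 0.07, limma adjusted p = 0.0338). The 4 arrays of the SRC-3 experiment, between 11.68 and 11.87, lay at the level of the RORγt-deficient arrays and not of their wild-type arrays. Zap70 gave 11.67 and 11.68 beside 11.50 and 11.52, without overlap, but the difference of 0.16 did not pass (limma adjusted p = 0.124).

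**Figure D2:**
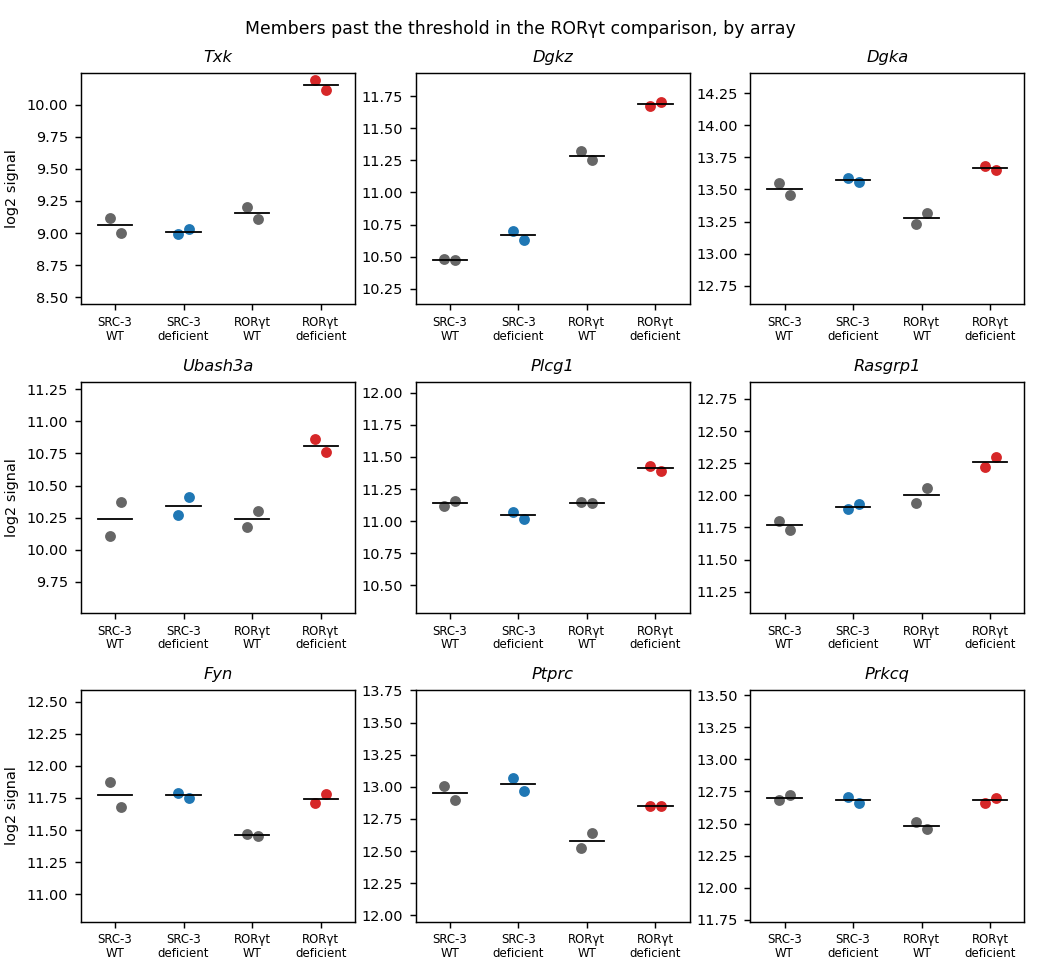
Log2 signal on each array for the 9 genes called in the RORγt comparison; points are arrays, lines are group means, and every panel spans the same height of 1.8 log2 units. In each panel both RORγt-deficient points lie above both of their wild-type points; for Txk, Ubash3a and Plcg1 they lie above all 6 other arrays, as they do for Dgkz, Dgka and Rasgrp1.

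Among the adaptors and the signalling complex they assemble, 1 of 6 genes passed without RORγt, beside 19.4% of all genes. Plcg1 (probe set 10478219), the gene of the phospholipase that makes diacylglycerol and inositol trisphosphate, gave 11.43 and 11.39 without RORγt beside 11.15 and 11.14. It rose 1.2-fold (log2 fold change 0.26, SE 0.05, limma adjusted p = 0.0165), and in the SRC-3 comparison it gave −0.09. The difference of these effects was −0.36 (limma adjusted p = 0.0752). Lcp2, the gene of SLP76, lay in the opposite direction: 12.84 and 12.91 without RORγt beside 13.11 and 13.16, a value of −0.26 that missed the threshold (limma adjusted p = 0.0594). It passed with an intensity trend and robust prior (adjusted p = 0.0363), with array weights (0.0129), with the 4 arrays of the comparison alone (0.0166) and without either SRC-3 wild-type array (0.0228). Lat, the membrane scaffold, gave 12.98 and 13.00 beside 13.03 and 13.02, a log2 fold change of −0.03. Grap2, which encodes the linker between LAT and SLP76, gave 0.15 (limma adjusted p = 0.0874) and Vav1, the exchange factor for Rac, 0.10 (0.378). Themis, which acts in thymocyte selection, was lower in both comparisons (−0.26 without SRC-3 and −0.39 without RORγt). Its SRC-3 arrays ranged from 10.66 to 11.31, and its adjusted p were 0.558 and 0.116. With the 4 RORγt arrays alone that of the RORγt comparison was 0.00672 (limma), and with array weights 0.0249.

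The relays to protein kinase C, Ras and NF-kB held 2 calls of 4 without RORγt, beside 19.4% of all genes. Rasgrp1 (probe set 10486061), the diacylglycerol-driven exchange factor for Ras, gave 12.22 and 12.30 without RORγt and 11.94 and 12.06 in wild type. It rose 1.2-fold (log2 fold change 0.26, SE 0.07, limma adjusted p = 0.0325). Its SRC-3-deficient arrays (11.89 and 11.93) also lay above their wild-type arrays (11.80 and 11.73), with a log2 fold change of 0.15 that did not pass (limma adjusted p = 0.418). Prkcq (probe set 10469255), the gene of protein kinase Cθ, gave 12.66 and 12.70 beside 12.51 and 12.46. It rose 1.15-fold (log2 fold change 0.20, SE 0.06, limma adjusted p = 0.0456), the weakest of the 9 calls. Bcl10, a link to NF-kB, and Sos1, the other Ras exchange factor, gave −0.01 and 0.04 without RORγt and 0.15 and 0.19 without SRC-3, none of which passed.

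Among the phosphatases and the CSK module, all 7 values were positive without RORγt and 2 passed. Of all genes 50.4% were positive and 19.4% passed. Ubash3a (probe set 10443749), which encodes a protein of lymphocytes that dampens receptor signalling, gave 10.86 and 10.76 without RORγt and 10.18 and 10.30 in wild type. The SRC-3 experiment gave 10.27 and 10.41 in deficient cells and 10.11 and 10.37 in wild type. It rose 1.48-fold without RORγt (log2 fold change 0.56, SE 0.10, limma adjusted p = 0.00967). Its paralog Ubash3b, a phosphatase active on ZAP70, gave 11.19 and 11.38 beside 10.52 and 10.60, a larger log2 fold change of 0.72. It missed the threshold (SE 0.24, limma adjusted p = 0.0775). The fit takes 1 spread from all 8 arrays, and the SRC-3 pairs were far apart (10.67 and 10.05 deficient, 10.17 and 9.53 wild type). With the 4 RORγt arrays alone the limma adjusted p was 0.00239, with array weights 0.013, and leaving out any 1 SRC-3 array it was 0.0438 (deficient) or 0.033 (wild type).

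Ptprc (probe set 10358224), the gene of CD45, the phosphatase that keeps the SRC family kinases primed, gave 12.85 on both RORγt-deficient arrays and 12.52 and 12.64 on wild-type arrays. It rose 1.2-fold (log2 fold change 0.27, SE 0.07, limma adjusted p = 0.0367). Its SRC-3 arrays lay higher still, between 12.90 and 13.07. Ptpn6, the gene of SHP-1, gave 0.17 (limma adjusted p = 0.0717), and Pag1, which encodes the membrane anchor of CSK, 0.17 (0.121). Ptpn22 and Csk, whose products act together against the SRC family kinases, gave 0.02 and 0.05. Without SRC-3, Csk gave 11.17 and 11.12 beside 11.32 and 11.26, which do not overlap (−0.15 on the log2 scale, limma adjusted p = 0.369).

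Both diacylglycerol kinases, which remove the lipid that activates RASGRP1 and protein kinase Cθ, rose. Dgka (probe set 10373542) gave 13.68 and 13.65 without RORγt beside 13.23 and 13.32, a 1.31-fold rise (log2 fold change 0.39, SE 0.06, limma adjusted p = 0.00657). Dgkz gave 11.67 and 11.70 beside 11.32 and 11.25 with its brighter probe set (10485081), a 1.32-fold rise (log2 fold change 0.40, SE 0.06, limma adjusted p = 0.00542). The dimmer probe set of Dgkz (10485115) did not show it: it gave 8.33 and 8.23 beside 8.20 and 8.33 (log2 fold change 0.01, limma adjusted p = 0.957). The mean of the probe sets gave 0.20, a value still past the threshold (adjusted p = 0.0384). In the SRC-3 comparison Dgkz had the smallest p of the 37 genes, with 10.70 and 10.63 beside 10.48 and 10.47 (log2 fold change 0.18, SE 0.06, limma adjusted p = 0.268). The ubiquitin ligase genes Cblb and Cbl gave 0.17 (limma adjusted p = 0.417) and −0.02 (0.886) without RORγt.

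The regions before the starts of Ubash3a, Dgka and Dgkz are shown because these regulators had the largest calls after Txk. They lie at chr17:31207816-31208065 (plus strand), chr10:128745085-128745334 (minus strand) and chr2:91963564-91963813 (minus strand), with the same motifs in capitals.
Ubash3a: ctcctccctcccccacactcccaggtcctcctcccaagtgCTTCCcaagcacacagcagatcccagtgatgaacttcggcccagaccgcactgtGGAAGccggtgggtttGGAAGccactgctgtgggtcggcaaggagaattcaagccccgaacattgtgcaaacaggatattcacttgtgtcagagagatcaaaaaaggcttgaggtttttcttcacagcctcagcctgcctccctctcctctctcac
Dgka: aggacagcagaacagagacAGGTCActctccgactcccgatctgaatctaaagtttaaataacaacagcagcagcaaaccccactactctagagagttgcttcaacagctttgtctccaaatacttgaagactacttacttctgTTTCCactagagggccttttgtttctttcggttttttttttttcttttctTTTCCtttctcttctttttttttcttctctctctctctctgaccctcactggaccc
Dgkz: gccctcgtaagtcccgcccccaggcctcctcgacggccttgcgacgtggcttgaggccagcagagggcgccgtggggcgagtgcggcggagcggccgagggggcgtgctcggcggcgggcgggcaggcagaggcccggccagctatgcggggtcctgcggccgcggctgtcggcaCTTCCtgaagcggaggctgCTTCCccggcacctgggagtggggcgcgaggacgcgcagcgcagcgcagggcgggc
AGGTCA was found in Dgka alone of these 3, and in 1 of the 9 promoters of called genes (11.1%). It was present in 3 of the 22 other promoters that the table lists for the 37 genes (13.6%) and in 13.8% of all 27025 promoters. GGAAA was present in 4 of the 9 and in 17 of the 22 (77.3%), beside 55.6% of all promoters. GGAAG was present in 5 of the 9 and 18 of the 22 (81.8%), beside 63.7%. TGTGGT was present in 0 of the 9 and 1 of the 22 (4.55%), beside 14.2%. The median G and C content was 62.4% for the 9 and 52.0% for all promoters. These are counts of letters in windows of 250 bases, given without a test.

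In the calcineurin and NFAT arm no gene passed in either comparison, beside 19.4% of all genes without RORγt and 0.225% without SRC-3. Nfatc1, Nfatc2 and Nfatc3, the transcription factors that calcineurin activates, gave 0.18, 0.04 and 0.10 without RORγt and 0.07, 0.02 and 0.11 without SRC-3, with limma adjusted p between 0.232 and 0.947. Nfatc2 moved by little: it gave 11.21 on both SRC-3-deficient arrays beside 11.19 on both wild-type arrays. For Nfatc3 the SRC-3-deficient arrays (12.35 and 12.32) lay above the wild-type arrays (both 12.22). Rcan1, a calcineurin inhibitor and a transcript that NFAT induces, gave 8.83 and 8.91 beside 9.13 and 9.0 without RORγt (−0.19, limma adjusted p = 0.157) and −0.03 without SRC-3. Ppp3ca, the gene of a catalytic subunit of calcineurin, gave 0.37 without SRC-3 (10.25 and 9.80 beside 9.82 and 9.5; adjusted p = 0.393) and 0.29 without RORγt (adjusted p = 0.239). With the 4 RORγt arrays alone the latter passed (limma adjusted p = 0.0258).

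**Figure D3:**
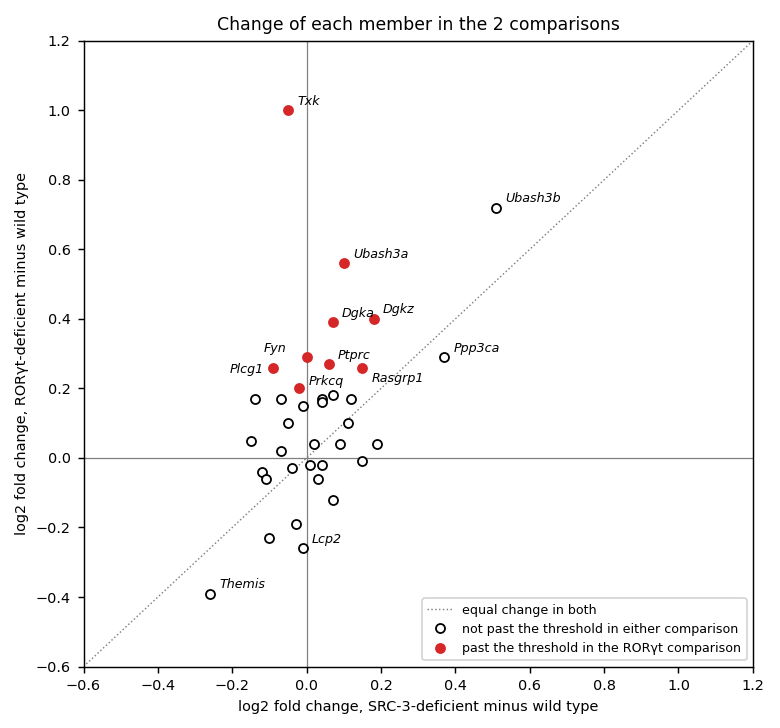
Log2 fold change of each of the 37 genes without SRC-3 (horizontal axis) against that without RORγt (vertical axis); the dotted line marks equal change. The 9 red points, called in the RORγt comparison, lie between 0.20 and 1.0 on the vertical axis and between −0.09 and 0.18 on the horizontal axis.

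The 2 comparisons have separate wild-type controls. For 23 of the 37 genes (62.2%) both effects had the same sign, beside 63.8% of all genes. Of the 9 called genes 6 had the same sign (66.7%), beside 84.1% of the 1114 genes called higher in the RORγt comparison. Both RORγt-deficient arrays lay above both wild-type arrays for 22 of the 37 genes, a separation found for 35.8% of all genes, and below them for 9, beside 34.2%. In the SRC-3 comparison 10 of the 37 were higher and 6 lower in this way, beside 23.0% and 14.3% of all genes.

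The calls without RORγt rest on few arrays. Txk and Dgkz passed with any 1 array left out. Dgka and Ubash3a were lost without RORγt-deficient replicate 1 (limma adjusted p = 0.0594 and 0.0769) and without wild-type replicate 1 (0.0537 and 0.076). Plcg1, Fyn, Prkcq, Rasgrp1 and Ptprc were lost on leaving out any 1 of the 4 RORγt arrays, with adjusted p between 0.0665 and 0.215, and values between 0.17 and 0.33. Prkcq was also lost without either SRC-3-deficient array (0.0547). That left 2, 4, 2 and 4 calls without deficient replicates 1 and 2 and wild-type replicates 1 and 2, while the share of all genes called fell to 4.37%, 9.0%, 5.63% and 5.01%. The difference between the effects on Txk missed the threshold without RORγt wild-type replicate 2 (−1.0, limma adjusted p = 0.0512).

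**Figure D4:**
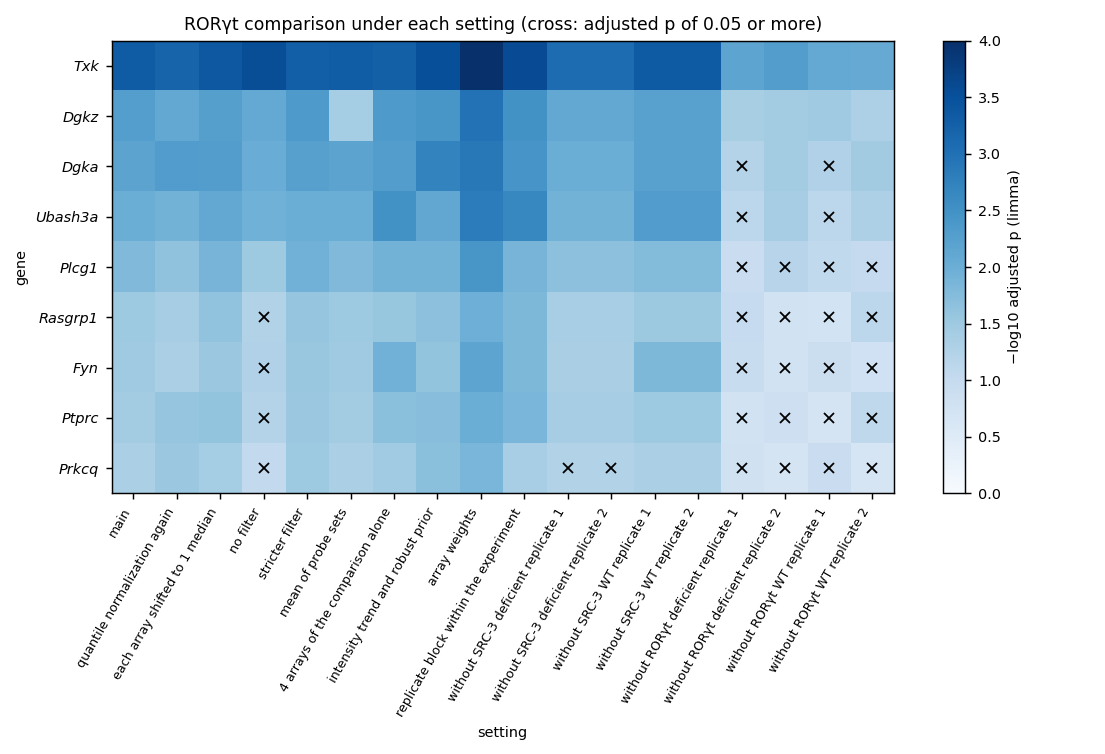
Limma −log10 adjusted p of the 9 genes (rows) in the RORγt comparison under the main setting and 17 alternatives (columns); darker means a smaller p, and crosses mark an adjusted p of 0.05 or more. Txk and Dgkz carry no cross, and most crosses stand in the last 4 columns, where 1 array of the RORγt experiment is left out.

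Sex moved with the RORγt comparison, and the SRC-3-deficient pair holds 1 array of each Xist level. Between the arrays of that pair, replicate 1 minus replicate 2, the 9 genes differed by −0.14 to 0.10. This is 1 array against 1, and the part of sex in the results was not tested. The summed linear signal of the 6 measured NK markers was 4883 to 4955 without RORγt and 2197 to 2358 in wild type. This came from Nkg7 (12.07 and 12.08 beside 11.02 and 10.93) and Klrd1 (8.92 and 8.61 beside 7.01 and 6.71). The others, Ncr1, Klrb1c, Klrk1 and Klra8, stayed at or below 5.93 on every array. Without RORγt their log2 fold changes, fitted without the filter, were 0.09, −0.08, 0.25 and 0.24. The part of these markers in the results was not tested. In cultures measured in bulk, fewer cells of a type and less RNA per cell cannot be told apart. The myeloid markers summed to 1712 to 1876 without RORγt and 2068 to 2141 in wild type. The CD8 markers summed to 915 to 937 and 831 to 879. Of the myeloid markers only Cd68 passed the filter (9.79 and 10.07 beside 10.33 and 10.26, limma adjusted p = 0.0834). Of the CD8 markers only Cd8b1 did (9.14 and 9.13 beside 8.92 and 9.0, limma adjusted p = 0.229). Cd8a had a mean of 7.17 both without RORγt and in wild type.

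The list of other genes of the pathway had 44 tested members. Without RORγt 10 were higher, 1 was lower and 33 did not pass, with a median of 0.04. The 10 included Rasgrp2, whose call supports nothing for the reason given below. Of all genes tested, 10.0% were higher and 9.37% lower. Beside Tec, the genes with the smallest p were Fyb, which encodes an adhesion adaptor that binds SLP76 (0.57, SE 0.07), and Lax1, which encodes a membrane adaptor that restrains signalling (0.55, SE 0.07). They were followed by Rasgrp2, the gene of a calcium-driven exchange factor (0.75, SE 0.11), the calcium sensor gene Stim2 (0.42, SE 0.07) and Rasa1, which encodes a Ras GTPase-activating protein (0.59, SE 0.10). Their limma adjusted p lay between 0.00265 and 0.00879. Fyb gave 11.55 and 11.49 without RORγt and 10.96 and 10.95 in wild type. Rasgrp2 passed the filter only through the RORγt-deficient arrays (7.96 and 8.03 beside 7.32 and 7.17), so it had to differ, and its call supports nothing. Its effects differed between the comparisons by −0.91 (limma adjusted p = 0.0394). The calls of Stim2 and Rasa1 were lost without RORγt-deficient replicate 1 (0.0657 and 0.0687), that of Stim2 also without wild-type replicate 2 (0.0638) and that of Rasa1 without wild-type replicate 1 (0.0705). Without SRC-3 no gene of the 44 passed by limma (9 with an unadjusted p under 0.05, a range that held 12.5% of all genes), and the smallest p belonged to Map2k1 (0.20), Tec (−0.24) and Wipf1 (0.25), with adjusted p of 0.227 to 0.296.

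Of 18 transcripts that receptor stimulation induces, all tested, 1 rose without RORγt, 0 fell and 17 did not pass, with a median of −0.14, beside the same 10.0% higher and 9.37% lower of all genes. That gene was Tox, an HMG-box transcription factor gene, with 10.38 and 10.17 beside 9.41 and 9.54 (log2 fold change 0.80, SE 0.08, limma adjusted p = 0.0018). Of the others only Tnfrsf4 (0.05) and Lag3 (0.17) had a positive value without RORγt, beside 50.4% of all genes. The next smallest p there belonged to Egr3 (−0.60, limma adjusted p = 0.0594). The summed linear signal of the 18 was 86008 to 92226 without RORγt and 99142 to 100679 in wild type, and was not tested. Without SRC-3 Tox gave 9.59 on both arrays beside 8.97 and 9.01, a log2 fold change of 0.60 just short of the threshold (limma adjusted p = 0.0516). It passed with each array shifted to 1 median (0.0493) and without the filter (0.0492). It also passed with an intensity trend and robust prior (0.0384) and with the replicate number as a block (0.0227). The next by p in the SRC-3 comparison were Nr4a2, an immediate early gene of the receptor (0.57, limma adjusted p = 0.316), and Tnfrsf4, the gene of OX40 (0.26, adjusted p = 0.414). Nr4a2 passed without SRC-3 wild-type replicate 1 (0.94, adjusted p = 0.019).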

How the data were processed

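The deposited values are log2 signals per probe set, one column per array, made by the authors by RMA, the submitters' processing notes naming Affymetrix Expression Console; version, build and annotation are not given in the sources used here. RMA corrects background, normalises by quantiles and compresses low signals. No new normalization was applied. Of 35556 probe sets, the 21789 with 1 symbol in the platform table were used (1621 had several, 12146 none). Genes needed a signal of 7.85 on at least 2 arrays. Group means of all 8 arrays were fitted with limma 3.58.1 in R 4.3.3 (lmFit, eBayes; 4 residual and 3.53 prior degrees of freedom), without a batch term. Tests were two-sided, with Benjamini-Hochberg adjustment over 11128 genes and a threshold of 0.05. SE and 95% intervals are those of this fit, which was tested on simulated data. Exact permutation of 2 against 2 arrays cannot go below p = 0.333 and was not used.

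The 38 genes and the lists were chosen with earlier results of these data known. All 38 were to be named, with Ncoa3 and, of each list, up to 6 genes past the threshold by smallest p, or else 3. The list of other pathway genes also held older names of Grap2 and Ubash3b, which were dropped. Platform symbols and gene order come from GRCm38.p6 tables, and the promoter of 31 of the 37 genes was listed. With 2 arrays per group, their number limits precision. The alternatives covered normalization, filter, probe sets, arrays in the fit, prior, weights, the replicate block and each array left out.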

Additional observations from a re-analysis of the deposited data

Results flagged for a closer look

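The difference between the effects of SRC-3 loss and of RORγt loss passed limma's test of the difference itself for 3 of the genes named above. For Txk the SRC-3 effect minus the RORγt effect was −1.05 on the log2 scale, and its call was lost without RORγt wild-type replicate 2 (adjusted p = 0.0512). For Rasgrp2 it was −0.91 (adjusted p = 0.0394), from effects of −0.16 and 0.75, but this gene passed the filter only through the 2 RORγt-deficient arrays and had to differ, so its call supports nothing. This call was lost on leaving out any of 7 arrays (adjusted p between 0.0537 and 0.172), and kept without replicate 1 of the SRC-3 wild type (0.0131). For Ncoa3, the gene targeted in the SRC-3 experiment, it was −0.76 (adjusted p = 0.0394), from effects of −0.58 and 0.17. This call was lost without SRC-3-deficient replicate 2 (adjusted p = 0.0939) and without any 1 of the 4 RORγt arrays (0.136 to 0.166).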

How the results depend on the processing

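The 9 genes called without RORγt kept their direction under every alternative run. Their count was 5 without the filter, where 19938 genes were tested and Fyn, Prkcq, Rasgrp1 and Ptprc were lost (limma adjusted p = 0.0532, 0.09, 0.055 and 0.0604), beside 9.20% of all genes. The count in either direction was 14 with the 4 arrays of the comparison alone (12 higher, 2 lower, beside 30.5% of all genes) and 17 with array weights (14 higher, 3 lower, beside 33.1%). The count of the other pathway genes without RORγt was 11, and 7 with the stricter filter at 9.78, beside 19.4% and 24.0% of all genes. That filter tested fewer genes, and Tec, Lax1 and Rasgrp2 lay below it. With 1 array left out the counts ranged from 2 to 11 (the 37 genes) and from 4 to 12 (other pathway genes) without RORγt, and that of the difference between comparisons from 0 to 1. No gene of the 37 was called without SRC-3 by limma under any alternative other than the replicate block; with the 4 arrays alone 1 had an unadjusted p under 0.05.

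With the replicate number within the experiment as a block, limma called 2 of the 37 without SRC-3 (Ubash3b, adjusted p = 0.0116, and Ppp3ca, 0.0313), 14 without RORγt (11 higher, 3 lower) and 3 for the difference between comparisons, among 2.70%, 30.7% and 8.49% of all genes. No label says that the numbers pair the arrays. The differences between replicates 1 and 2 correlated across genes between deficient and wild-type arrays. The r was 0.536 in the SRC-3 experiment and 0.002 in the RORγt experiment. The 3 genes called lower without RORγt with this block were Cd247 (limma adjusted p = 0.043), Lcp2 (0.0191) and Themis (0.0045). Ubash3b (0.000573) and Ppp3ca (0.0123) were among the 11 called higher.

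The median of the 37 genes was 0.00 without SRC-3 after quantile normalization and −0.01 to 0.04 with 1 array left out. Without RORγt it was 0.12 both after a shift to 1 median and with the stricter filter, and 0.09 to 0.14 with 1 array left out. Of the 65 uncalled values of the 37 genes in the 2 comparisons, 22 changed sign under at least 1 alternative.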

Other observations

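The wild-type cultures of the 2 experiments differed in level at many genes, receptor signalling genes among them. In the RORγt wild-type pair 7 of the 37 genes were more than 0.5 higher on the log2 scale than in the SRC-3 wild-type pair (18.9%), and 0 were lower by as much. Of all genes tested, 13.2% were higher and 11.0% lower by as much. They were Nfatc1 (0.88), Dgkz (0.81), Cd3e (0.79), Ubash3b (0.71), Cblb (0.69), Lat (0.66) and Nfatc2 (0.57). Cd3g (0.04), Cd5 (0.01), Plcg1 (0.01) and Ubash3a (0.00) were level between the pairs. Experiment, mice and any batch cannot be told apart here, and the differences were not tested. For 4 of the 9 genes called without RORγt, namely Fyn, Ptprc, Prkcq and Dgka, the RORγt wild-type pair lay below all 6 other arrays. The wild-type differences of Fyn, Ptprc and Prkcq were −0.31, −0.38 and −0.22.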
